A study of Oryza sativa Indica Group with 64 samples.

Results

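The genes described here were the very abundant leaf transcripts of rice that moved little over the day in control plants. A gene was taken when its mean over all 64 libraries exceeded 500 CPM (its counts scaled to a common library total) and when R stayed under 2 in Control. R was the difference between the highest and the lowest of the 8 time points in the median log2(CPM + 1) of the 4 Control replicates, so an R of 2 is a 4-fold range. Of 57174 genes listed, 200 exceeded 500 CPM, and 99 of these (49.5%) had R under 2. The other 101 abundant genes had R of 2 or more and are called the rhythmic abundant genes below. The 99 genes were thus chosen by mean CPM over all libraries and by R in Control, and both measures are given only as descriptions.

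The plants were IR64, an indica rice, field-grown in the Philippines in the dry season. Control plants had unheated nights and WNT plants (warm night temperature) were warmed by infrared heaters at night. The 2 treatments shared genotype, season and sampling hours, and the night temperatures reached were not given in the labels. Leaves, in the paper flag leaves, were the tissue. Samples were taken at dawn, after 3, 7 and 10 h, at dusk, and after 14, 17 and 23 h. Each of the 16 combinations of treatment and hour had 4 replicates. Poly(A) selection and a strand-marking kit were used for the libraries, whose counts on genes lay between 1714647 and 37248564 (median 8627815). Nothing stated whether replicates came from separate plots or plants, so p-values measure only the spread between these libraries, and WNT cannot be told apart from a difference between plots.

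Leaf mRNA is made up unequally, since few genes supply much of it. In leaves of many plants the transcripts of photosynthesis and of the circadian clock rise and fall strongly over the day, following light and the clock, whereas transcripts for protein synthesis and basic metabolism usually move less. Poly(A) sequencing measures each gene as a part of the total, so the level of 1 abundant gene depends on what the others do. The gene identifiers of the files were not paired with names in the tables used (0 of 99 matched), so no gene function and no leaf marker could be assigned, and genes are described by their values and their rank in mean CPM.

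Several libraries stood apart from their groups. In Control replicate 4 at 3 h, 43 of the 99 genes were more than 1 log2 unit below the median of the other 3 Control replicates and 0 were as far above, against 6.71% below and 11.7% above among all 20525 tested genes. In that library 22.02% of reads were not aligned, compared with 11.7% to 12.6% in the other 3. Unaligned reads were 25.7% in Control replicate 3 at dusk, 21.9% in WNT replicate 1 at 14 h and 21.7% in WNT replicate 1 at 23 h. The median deviations of these from their groups over the 99 genes were 0.11, 0.22 and 0.10 log2 units. It was 0.78 in Control replicate 4 at 3 h, and a link to unaligned reads was not tested. Control replicate 1 at 14 h had a median deviation of 0.65 log2 units from its group over the 99 genes, against 0.13 to 0.19 in the other 3, and a mean r of 0.64 with them, against 0.76 to 0.84. Over all tested genes the mean r with the group was 0.952 for WNT replicate 3 at 17 h (others 0.968 to 0.969), 0.936 for WNT replicate 4 at 3 h (others 0.952 to 0.957), 0.940 for Control replicate 3 at dusk (others 0.956 to 0.964) and 0.925 for WNT replicate 3 at 23 h (others 0.944 to 0.947). These 6 libraries were set aside in a further fit, whose counts are given beside the main ones. They were chosen after seeing the data and by no stated limit. Control replicate 3 at 7 h was kept, although its mean r over all tested genes was 0.928 (others 0.945 to 0.959).

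Group means of the summed share of the 99 genes stayed between 9.68% and 11.8% of counts at all hours and in both treatments. Their share was 10.6% on average, with a lowest library of 8.53%, a median of 10.7% and a highest of 12.7%. The rhythmic abundant genes, a set of nearly the same size, held 13.0% on average, but from 5.07% to 24.1%. Counting was not limiting for any of the 99 genes, since the lowest count of any of them in any library was 483. Short and long transcripts collect reads in proportion to their length, which was not known here, so shares compare counts and not molecules.

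The share was also concentrated in few genes. The most counted gene, MH01t0113200, averaged 6513 CPM and supplied 6.14% of the counts of the 99 genes. The first 10 genes supplied 29.6%, the first 25 supplied 51.0% and the first 50 supplied 72.4%. The median gene averaged 718 CPM and 33 genes exceeded 1000 CPM. At the edges of the rule, the gene with the highest R inside had R of 1.89 at 603 CPM and the nearest outside had R of 2.05 at 1612 CPM. The lowest mean inside was 501.1 CPM and the highest outside with R under 2 was 499.9 CPM.

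Over the day, the share of the 99 genes in Control began at 10.6% ± 0.40 at dawn and was 10.9% ± 0.92, 10.4% ± 0.60 and 10.7% ± 0.65 after 3, 7 and 10 h (SD, n = 4). It was 10.5% ± 0.82 at dusk, 9.68% ± 1.56 after 14 h, 11.4% ± 1.22 after 17 h and 11.0% ± 0.65 after 23 h. In WNT it was 10.4% ± 0.68, 10.6% ± 0.30, 10.7% ± 1.03, 10.2% ± 0.25, 10.2% ± 0.94, 10.2% ± 1.08, 11.8% ± 0.69 and 10.6% ± 0.40 at the same times. Both treatments were lowest at 14 h and highest at 17 h, and the highest mean was 1.18 times the lowest in Control and 1.16 times in WNT. The SD between the 8 group means was 0.50 percentage points in Control and 0.53 in WNT. The mean within-group SD was 0.85 in Control and 0.67 in WNT. The within-group SD is that of single libraries, and means of 4 vary less, so the 2 measures are not on 1 scale. Change of the share over the day was not tested. For the rhythmic abundant genes the highest mean was 3.32 times the lowest in Control (20.8% at 3 h and 6.25% at 14 h) and 2.94 times in WNT. The genes of 100 to 500 CPM, which were not selected on R, moved less than the 99 genes in their summed share, by 1.08 times in Control and 1.03 times in WNT.

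**Figure D1:**
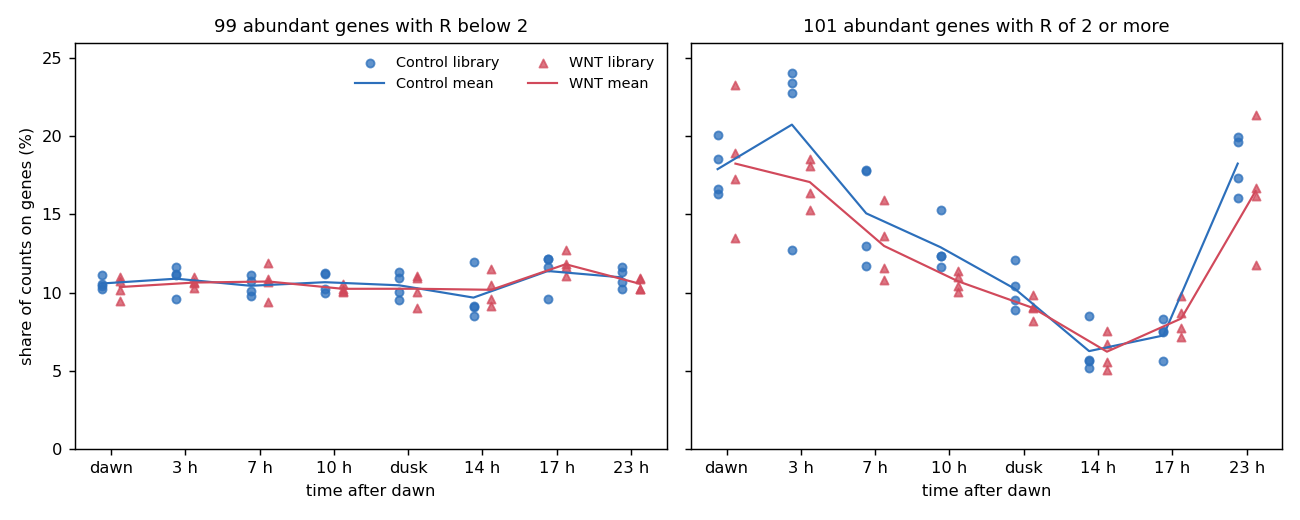
Share of counts on genes, in percent, by time after dawn in each library (points) with group means of 4 libraries (lines), for the 99 genes on the left and the 101 rhythmic abundant genes on the right. The 99 genes lay between 8.53% and 12.7% in all 64 libraries, whereas the rhythmic abundant genes fell from 20.8% at 3 h to 6.25% at 14 h in Control.

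WNT did not separate from Control in this share at any of the 8 time points. At 14 h, where the means differed most, the Control replicates held 11.99%, 9.08%, 9.13% and 8.53% and the WNT replicates 9.56%, 11.5%, 10.5% and 9.12%. The WNT mean was 0.50 percentage points higher with a pooled SD of 1.34, and 1 Control library was above all WNT libraries. The difference was 1.27 points without that library, Control replicate 1, and 0.05 points without WNT replicate 2, with 0.12 to 0.85 points when any other library of that hour was left out. At 10 h the Control replicates held 11.2%, 9.97%, 10.3% and 11.3% and the WNT replicates 10.0%, 10.3%, 10.1% and 10.6%, a WNT mean 0.42 points lower (difference -0.42, pooled SD 0.49). At 3 h the difference was -0.25 points (pooled SD 0.68), and -0.69 points without Control replicate 4. The groups overlapped at every hour, and a sum over genes chosen in this way was given no p-value.

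How flat the set appeared depended on the scaling. TMM, the scaling used for the tests, sets libraries equal over the bulk of genes and not over the total, and its factors ran from a mean of 0.82 in Control at 3 h to 1.26 at 14 h. On TMM-scaled CPM the summed level of the 99 genes in Control was 137866 ± 31599 at 3 h and 78149 ± 21277 at 14 h (SD, n = 4), a highest mean 1.76 times the lowest. In WNT it was 129605 ± 10860 at 3 h and 80200 ± 14524 at 14 h, a ratio of 1.62. The summed level was thus lowest at 14 h under both scalings, but its highest hour was 17 h as a share of counts and 3 h after TMM scaling. The rhythmic abundant genes moved 5.29-fold in Control and 4.60-fold in WNT on that scale. The TMM-scaled sums of Control and WNT also overlapped at every time point.

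The place of the 99 genes among the most counted genes changed more than their share did. Of the 100 most counted genes of a library, an average of 34.3 belonged to the 99 genes after 3 h in Control, 50.8 after 14 h and 61.3 after 17 h. The WNT averages for these hours were 36.3, 56.5 and 61.3. Over all 64 libraries the number ran from 31 to 67. Hours with a low share of the rhythmic abundant genes were those in which the 99 genes filled more of the top ranks.

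Among themselves the 99 genes moved more than their sum. R, here and below, was taken on CPM without TMM scaling. R in Control, which the rule limits, ran from 0.51 to 1.89 with a median of 1.19, a 2.29-fold range. In WNT, whose libraries R did not use, it ran from 0.22 to 2.76 with a median of 1.18. R stayed under 2 in WNT for 92 of the 99 genes and reached 2 or more for 7. It was larger in WNT for 43 genes and smaller for 56, and the median difference was -0.04 log2 units. Of the 101 rhythmic abundant genes, 94 kept an R of 2 or more in WNT, where their median R was 3.40 against 3.85 in Control. These 101 genes were chosen by a high R in Control, so some lower R in WNT would follow from that choice alone. The same holds for the ratios of their summed share and level over the day given above. Whether R differed between treatments was not tested. The 7 genes above 2 are given as values and were not tested for a change in R.

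**Figure D2:**
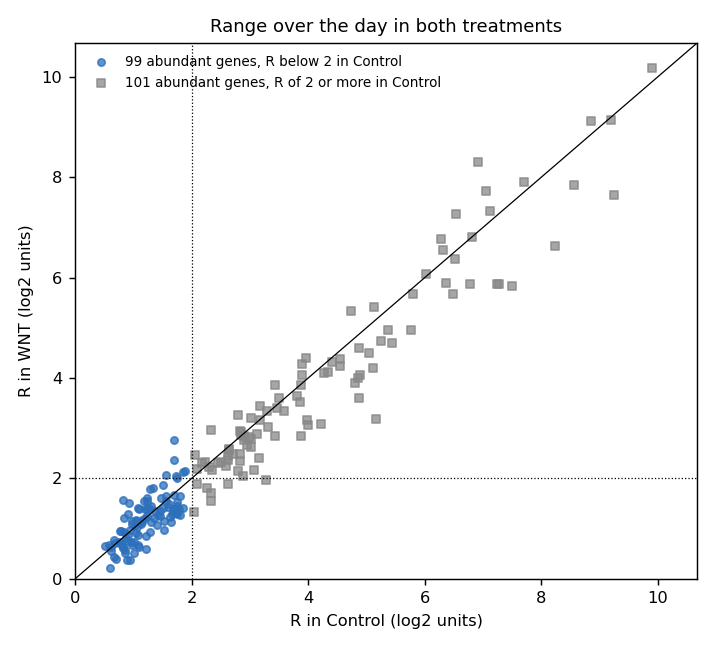
R, the range over the 8 time points in log2 units, in Control (horizontal) and WNT (vertical), for the 99 genes and the 101 rhythmic abundant genes. The solid line marks equal R and the dotted lines mark R of 2, and 7 of the 99 genes lay above 2 in WNT.

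The hours of highest and lowest level were spread over the day. By CPM in Control, 17 genes peaked at 3 h, 20 peaked at 17 h, 15 peaked at 23 h and 5 peaked at dusk, and 27 were lowest at 14 h. In WNT 11 peaked at 3 h, 21 peaked at 17 h and 20 peaked at 23 h. The highest hour was the same in both treatments for 54 genes and the lowest for 44. After TMM scaling 34 were highest at 3 h and 6 at 17 h in Control, 52 were lowest at 14 h, and the highest hour was shared between treatments for 46 genes. A rank of hours for 1 gene was therefore tied to the scaling as well as to the gene.

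**Figure D3:**
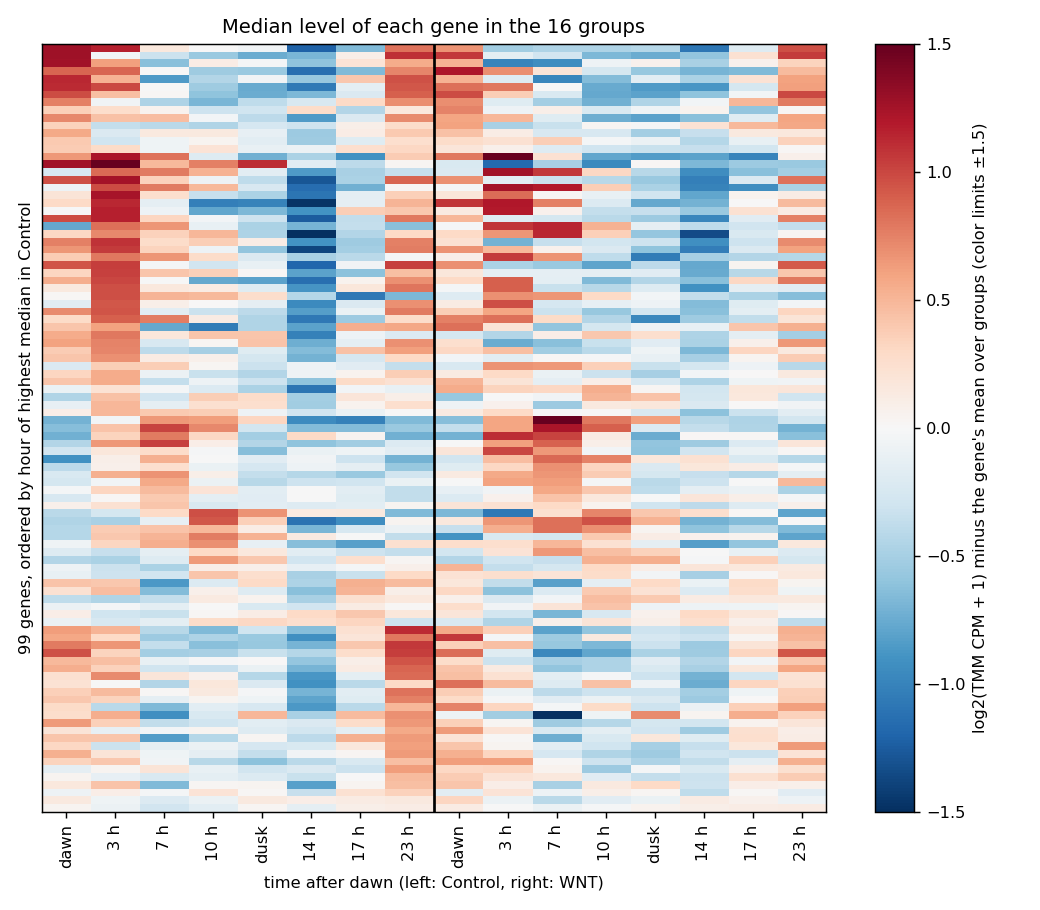
Median log2(TMM CPM + 1) of each of the 99 genes (rows, ordered by the hour of the highest Control median) in the 8 Control and 8 WNT groups (columns), less the mean of the gene over the 16 groups. Red is above and blue below that mean, and 52 genes had their lowest Control group and 34 their lowest WNT group at 14 h.

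Differences between time points were tested among the WNT libraries alone, because the rule had already limited them in Control. With edgeR's quasi-likelihood test, 78 of the 99 genes (78.8%) differed between time points at an adjusted p under 0.05, where 71.2% of all tested genes did, and 97 of the 101 rhythmic abundant genes. A limited range over the day was thus not an absence of change, and the share called was near that of all genes. The called genes had a median R in WNT of 1.25 and the 21 others of 0.94. With library size as the only scaling, 74 of the 99 were called and 15769 of all 20525 tested genes, a slightly lower share for the 99. Without the 6 libraries set aside, 82 of the 99 were called, with no share over all genes given for that fit.

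The most counted gene shows such a course. MH01t0113200 had R of 0.82 in Control and 1.57 in WNT, and its share of counts ran from 0.27% to 1.19% over the libraries. TMM scaling widened both ranges. Its median log2 level then ran from 12.11 at 14 h to 13.38 at 3 h in Control. In WNT it ran from 11.53 at dusk to 13.63 at 3 h, a range above 2. At 3 h its TMM-scaled CPM was 11312, 9449, 15329 and 10085 in the Control replicates and 13130, 12402, 13018 and 9700 in the WNT replicates. At dusk it was 5172, 4122, 5436 and 5641 in Control and 2764, 3101, 2834 and 4092 in WNT. The 2 treatments overlapped at 3 h and were apart at dusk, where every WNT library was lower. Time points differed among WNT libraries at an adjusted p of 7.4e-09, while the average WNT effect of -0.22 log2 units (SE 0.09) did not pass (adjusted p = 0.069), nor did any single hour.

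The second most counted gene, MH01t0752900, averaged 4003 CPM and had some of the smaller ranges, with R of 0.77 in Control and 0.71 in WNT. Its TMM-scaled CPM in Control had a lowest library of 2521, a median of 3983 and a highest of 6673, and in WNT these were 2080, 3690 and 7822. The 2 treatments overlapped at all time points. Its average WNT effect was -0.05 log2 units (SE 0.09, adjusted p = 0.72).

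The next gene in rank, MH07t0519600, averaged 3401 CPM and was highest late in the night. At 23 h its TMM-scaled CPM was 7265, 8120, 5120 and 6290 in Control and 4668, 4139, 2760 and 6512 in WNT, and at 10 h it was 2233, 1749, 1960 and 2657 in Control and 1989, 2052, 1668 and 2173 in WNT. The treatments overlapped at both hours. At dawn it was 5707, 5137, 5881 and 5360 in Control and 3448, 3924, 4381 and 5078 in WNT. Every WNT library was lower there, the only hour without overlap for this gene. Its average WNT effect was -0.16 (SE 0.11, adjusted p = 0.32). These 3 most counted genes of the set thus gave no call between treatments.

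The fifth gene in rank had the highest R in WNT, 2.76 against 1.70 in Control. At 7 h, its lowest hour in both treatments, its TMM-scaled CPM was 1532, 1711, 989 and 661 in Control and 247.6, 340, 1270 and 1950 in WNT. At dusk it was 4542, 2286, 2897 and 3724 in Control and 5953, 3311, 1947 and 4380 in WNT. The WNT replicates at 7 h spanned a wider ratio than the WNT means did over the day, whose highest was 4.09 times the lowest, and the treatments overlapped at every hour.

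WNT was then compared with Control in all 20525 genes that passed the filter on low counts, 99 of the 99 among them. Averaged over the 8 time points, 30 of the 99 genes differed at an adjusted p under 0.05, or 30.3%, against 19.1% of all tested genes and 27.7% of the rhythmic abundant genes. Of the 30, 14 were higher in WNT (14.1% of the 99, 10.1% of all genes) and 16 were lower (16.2% of the 99, 9.01% of all genes). The changes were small, with a median size of 0.35 log2 units among the 30, and 96 of the 99 genes changed by less than 0.5 log2 units. The median of the 99 genes was -0.03 log2 units and that of all tested genes 0.00. Both the count and its balance changed when 1 replicate number of a treatment was left out. That takes away a library at each of the 8 hours. Without WNT replicate 3 the count was 12, with 7 higher (7.07% against 4.26% of all genes) and 5 lower (5.05% against 5.0%). Without Control replicate 1 it was 14, with 10 higher (10.1% against 6.62%) and 4 lower (4.04% against 5.31%). Calls over all genes fell too, from 3917 to 1916 without WNT replicate 3 and to 2478 without Control replicate 1. The effects of fewer libraries and of those left out were not told apart. Without the 6 libraries set aside the count was 29, with 14 higher and 15 lower (14.1% and 15.2%, against 9.29% and 9.04% of all genes).

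**Figure D4:**
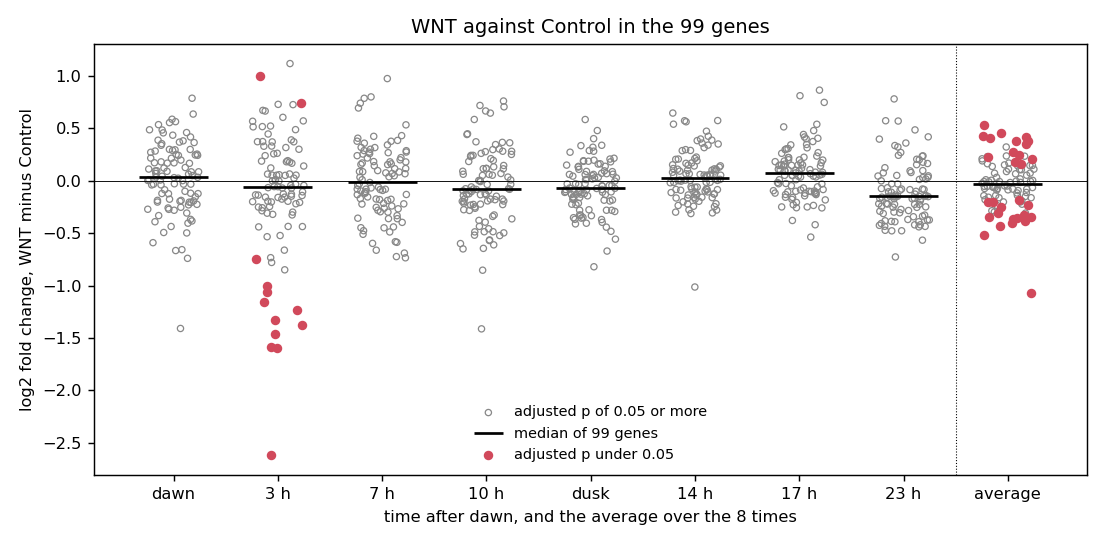
Log2 fold change, WNT minus Control, of each of the 99 genes (points) at the 8 time points and for their average, with the median of the 99 genes (bars). Filled points passed an adjusted p under 0.05 in edgeR's quasi-likelihood test, 13 genes at 3 h and 30 for the average, and none at the other 7 hours.

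Of the 30 genes called for the average, 6 of the higher and 4 of the lower ones had the same sign at all 8 time points. MH05t0022700 was the highest of them, at 0.53 log2 units above Control (SE 0.10, adjusted p = 0.00017), with a higher WNT mean at 8 of 8 hours. At 7 h its TMM-scaled CPM was 1052, 958, 698 and 1293 in Control and 2677, 1891, 1915 and 1368 in WNT, and every WNT library was above every Control library. At dawn it was 301, 533, 503 and 274 in Control and 378, 407, 408 and 618 in WNT, and the groups overlapped. This gene also had 1 of the 7 R values above 2 in WNT, 2.36 against 1.70 in Control.

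MH05t0266300 followed, at 0.41 log2 units above Control (SE 0.09, adjusted p = 0.0018), again with a higher WNT mean at 8 of 8 hours. At 10 h it measured 558, 411, 560 and 786 TMM-scaled CPM in Control and 814, 776, 1157 and 920 in WNT. Only the highest Control library reached into the WNT range there, and the groups overlapped to some extent at every hour. Both genes passed the threshold under all 17 alternatives tried for the average.

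MH02t0698700 fell most, by 1.07 on the log2 scale (SE 0.16, adjusted p = 8.9e-06), with a lower WNT mean at 8 of 8 hours. At 3 h it measured 1161, 619, 1815 and 1260 TMM-scaled CPM in Control and 257, 327, 141.4 and 68 in WNT, so the lowest Control library was above the highest WNT library. The change at that hour was -2.62 (SE 0.48, adjusted p = 0.00034). At 17 h it measured 351, 499, 307 and 247 in Control and 418, 315, 182 and 277 in WNT, and the groups overlapped. Among WNT libraries its time points did not pass a difference (adjusted p = 0.25), and its WNT means ran from 198 to 474.

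MH10t0107800 fell by 0.40 on the log2 scale (SE 0.13, adjusted p = 0.026), also with a lower WNT mean at 8 of 8 hours. At dawn it measured 1589, 473, 1368 and 1268 TMM-scaled CPM in Control and 356, 734, 870 and 850 in WNT, where Control replicate 2 lay inside the WNT range. At 3 h it measured 864, 815, 947 and 234 in Control and 287, 333, 265 and 250 in WNT, where Control replicate 4 was below all WNT libraries. The groups overlapped at every hour, and the average lost its call under 5 of 17 alternatives, with an adjusted p up to 0.28.

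**Figure D5:**
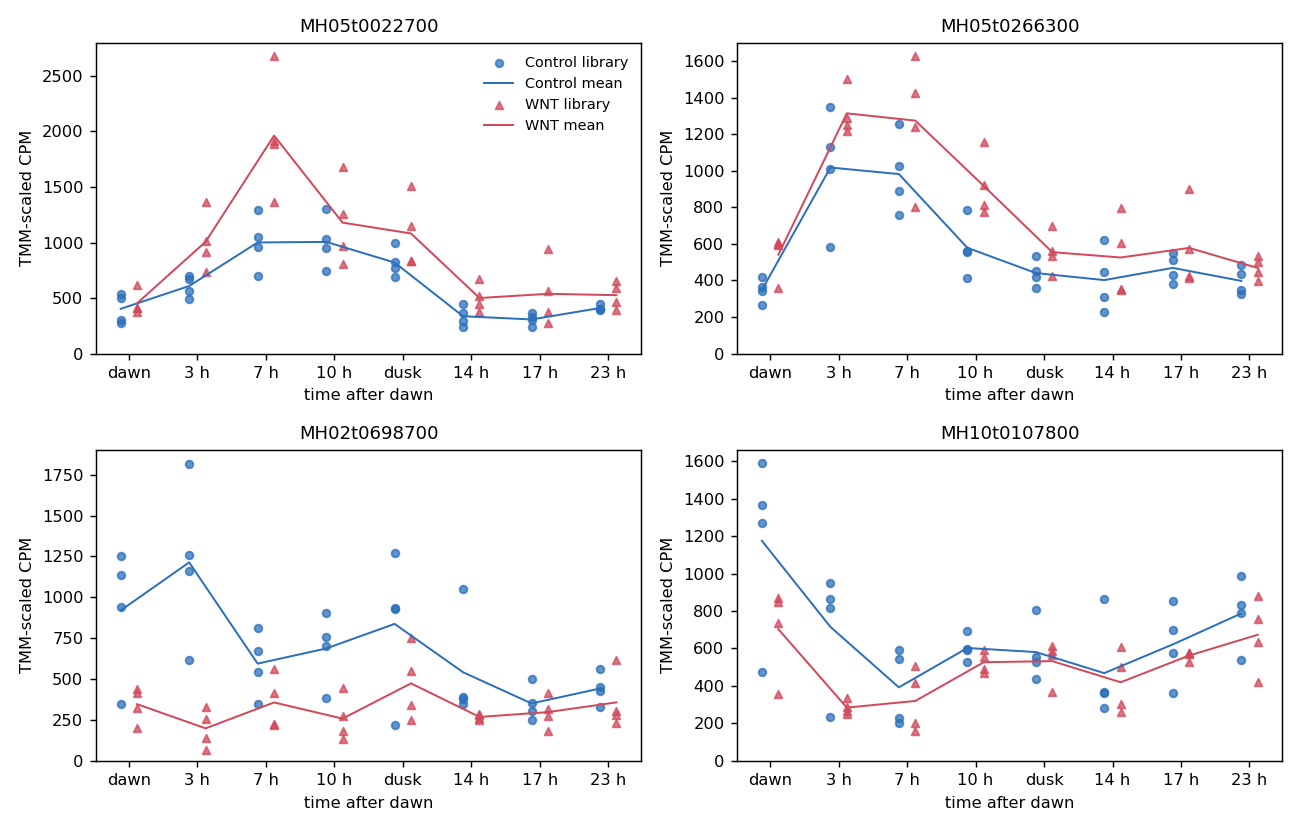
TMM-scaled CPM of 4 genes by time after dawn in each library (points) with group means of 4 libraries (lines). The WNT means of MH05t0022700 and MH05t0266300 were above the Control means at all 8 time points, and those of MH02t0698700 and MH10t0107800 below them.

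At single hours the calls came at 3 h alone. There 13 of the 99 genes were called (13.1%, against 6.84% of all tested genes), 11 lower in WNT (11.1% against 2.75%) and 2 higher (2.02% against 4.09%). The 11 lower genes changed by -0.74 to -2.62 log2 units, and 10 of them were also called for the average. Among the rhythmic abundant genes 9 were lower at 3 h and 0 were higher. At dawn edgeR called 0 of the 99 genes, where 0.404% of all tested genes were called. There 8 of the 99 and 2952 of all 20525 had an unadjusted p under 0.05. At 7 h, 10 h and dusk edgeR called 0 of the 99 genes and 0.0% of all tested genes at each. Those under an unadjusted p of 0.05 were 9, 14 and 4 of the 99 and 1908, 1810 and 834 of all. At 14, 17 and 23 h edgeR called 0 of the 99 genes, where 0.00487%, 0.195% and 0.00974% of all tested genes were called. Those under an unadjusted p of 0.05 were 3, 7 and 8 of the 99 and 1138, 1422 and 3032 of all. By unadjusted p the share of the 99 was below that of all genes at dawn, 14 h and 23 h and above it at 10 h. At 10 h limma-voom called 16 of the 99 genes and 2727 of all 20525, and DESeq2 called 1 of the 99 and 234 of all.

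Control replicate 4 and the other Control libraries took different places in the lower calls at 3 h. In 10 of the 11 genes Control replicates 1, 2 and 3 were all above all WNT libraries, and in 9 of the 11 replicate 4 was the lowest Control library. In 6 of the 11 it was still above all WNT libraries, and in 1 of them it was the highest Control library. The fourth gene in rank was the most abundant of the 11. Its TMM-scaled CPM was 7659, 8354, 6735 and 2653 in Control and 2812, 2618, 2398 and 2968 in WNT, a change of -1.23 log2 units (SE 0.37, adjusted p = 0.029), and -1.54 (adjusted p = 0.025) without the 6 libraries set aside. The call was lost under 14 of 26 alternatives, with an adjusted p up to 0.24. Its average change of -0.35 (SE 0.13, adjusted p = 0.044) was lost under 7 of 17, with an adjusted p up to 0.40. The 2 genes that were higher at 3 h had no overlap, the larger change being 1.00 log2 units (SE 0.20, adjusted p = 0.0011). The count of 13 was 11 without the 6 libraries set aside, 1 higher and 10 lower. Of all tested genes 0.88% were higher and 1.18% lower in that fit. The count was 14 without Control replicate 4 at 3 h (1335 of all 20797 tested genes). Without WNT replicate 4 at 3 h it was 3, all lower (3.03%), against 0.553% of all genes lower and 0.414% higher. It was 8 without Control replicate 1 or 3 at 3 h (1060 and 939 of all tested genes). When the 3 h libraries were fitted alone it was 0, and 5 of all 16379 tested genes were called.

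Whether the WNT effect itself differed between time points was tested with an interaction, and 0 of the 99 genes passed (lowest adjusted p = 0.17), where 0.365% of all tested genes did. At an unadjusted p under 0.05 there were 10 of the 99 and 2098 of all 20525 tested genes, nearly the same share. With limma-voom 0 of the 99 and 137 of all tested genes were called. The calls at 3 h therefore do not show that the effect was particular to that hour.

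Overlap of the libraries was also counted, without a model, and the counts differed from those of edgeR. At 3 h, 11 of the 99 genes (11.1%) had all 4 WNT libraries on 1 side of all 4 Control libraries, against 6.72% of all tested genes, and 7 of the 13 called genes were among them. At 10 h it was 20 genes (20.2%, against 10.3%), 8 above and 12 below, where edgeR called 0. The shares at dawn (6.06% against 5.94%), 7 h (6.06% against 4.55%), dusk (4.04% against 3.17%), 14 h (4.04% against 3.13%), 17 h (3.03% against 4.32%) and 23 h (7.07% against 7.71%) were near the background.

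Replicates of a group varied along 1 main direction in these genes. The first principal component of the within-group deviations of log2 TMM CPM held 60.03% of their variance over the 99 genes, compared with 31.7% for the rhythmic abundant genes, 30.3% for genes of 100 to 500 CPM and 23.8% for all tested genes. With it, 72 of the 99 genes deviated one way and 27 the other. Over the libraries, the first component of the rhythmic abundant genes had r = 0.94 with it. For genes of 100 to 500 CPM this was r = 0.98, and for genes of 10 to 100 CPM r = -0.54. The direction was thus not particular to the 99 genes. Libraries high on this direction had a higher share of the 99 genes, with r = 0.90 over the deviations of 64 libraries, and a higher share of the rhythmic abundant genes, with r = 0.84. These values share the libraries and their scaling and are descriptions. In bulk leaf tissue, fewer cells of a type and less RNA per cell cannot be told apart.

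The 72 genes of the larger side held 7.82% of counts on average and between 5.38% and 10.4% in a library, and the 27 others held 2.80% and between 1.71% and 4.47%. The lowest library on the direction was Control replicate 4 at 3 h, with 5.62% for the 72 genes and 3.93% for the 27. The highest was Control replicate 1 at 14 h, with 10.0% and 1.96%. Both ends were Control libraries, and the summed share of the 99 genes spanned a smaller ratio over the libraries than the share of either side. Over 64 libraries the direction had r = 0.10 with log2 depth and r = -0.26 with the percentage of unaligned reads, and the part of either in it was not tested.

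The spread between replicates of the 99 genes was close to that of all genes. Their within-group SD of log2 CPM had a median of 0.35, against 0.38 for all tested genes, 0.51 for the rhythmic abundant genes and 0.28 for genes of 100 to 500 CPM. By group the median SD of the 99 genes was lowest in WNT at 10 h (0.18) and highest in Control at 3 h (0.51). The gene with the lowest R in WNT had R of 0.22 there and 0.59 in Control. Its lowest, median and highest libraries measured 412, 640 and 852 TMM-scaled CPM in Control and 365, 521 and 756 in WNT. Its TMM-scaled WNT medians ran from 8.84 to 9.37 on the log2 scale, a wider range than in the gene of rank 62 (9.24 to 9.45). Its time points differed among WNT libraries in edgeR's test (adjusted p = 0.0081). Its level was lower in WNT by an average of -0.31 log2 units (SE 0.06, adjusted p = 0.00017). A small R and a call between treatments thus occurred in the same gene.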

How the data were processed

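Leaf RNA was sequenced in 64 libraries, and the labels gave treatment, hour and replicate for each. The files deposited by the authors hold raw counts of reads per gene, with 5 closing lines per file for reads not counted on a gene, which were left out. The submitters' processing notes name HISAT2 (version listed as 2) and HTSeq 0.6.0. Genome build, annotation and use of strand are not given in the sources used here, so overlapping, antisense and near-identical genes are uncertain. No column of another sample was present. Reads counted on genes were 37.8% to 75.2% of all reads. The lowest was Control replicate 2 at 14 h, which was not among the 6 libraries set aside. There 21.7% of reads aligned to several places, against 3.60% to 5.92% in the other Control replicates of that hour. The next lowest was WNT replicate 3 at 23 h, with 59.8% counted.

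CPM for the rule was count divided by the library sum. Shares were summed counts of the 99 genes over counts on genes. A library's smallest visible share was set at 3 counts, which covers counting error only. The tests used edgeR 4.0.16 on R 4.3.3, with these steps: filterByExpr by group (minimum count 10, total 15), TMM factors (0.695 to 1.36), a mean for each of 16 groups, glmQLFit (robust) and glmQLFTest, with Benjamini-Hochberg adjustment over 20525 genes. The paper names edgeR and an adjusted p under 0.05 but no test or design. The common biological coefficient of variation was 0.332. Per-library values are CPM with TMM factors.

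Genes named were the 4 most counted, and the 2 highest and 2 lowest average changes among genes called for the average with 1 sign at all 8 times. The fourth most counted is given by rank, since identifiers without names were kept to few. The fifth gene and the gene with the lowest R in WNT were chosen after their values were seen. The genes and lists were chosen with earlier results of these data known. Of 57174 identifiers 0 matched the RefSeq gene table (ASM3414082v1). No sequence was used.

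Alternatives were RLE factors, library size only, other filters, DESeq2 1.42.0, limma-voom (limma 3.58.1), a replicate block, single time points and libraries left out. Same-numbered libraries were checked for shared deviations. On simulated data, 185 of 200 genes changed by 2 log2 units at 3 h were recovered among 19899 tested (5 unchanged genes called). For a change of 1 on average, 195 of 200 were recovered among 19915 (12 unchanged). For a change of 2 over time in WNT, 189 of 200 were recovered among 19863 (13 unchanged). In the real data, the genes of the set called for the average changed by a median of 0.35 log2 units. The simulated rates are therefore not read as holding for changes that small, or for replicates that vary along 1 main direction. Python 3.11.15 and matplotlib 3.10.9 made the plots.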

Additional observations from a re-analysis of the deposited data

Results flagged for a closer look

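Within each group of 4, a library was picked out when its gap to the nearest other library exceeded Dixon's 95% critical value as a part of the group's range. This was run in 96 groups of values (the share of the 99 genes, the score on the main direction of replicate variation, and 4 named genes), and chance gives about 1 in 20, or 4.8. It picked 7, and the causes were not tested. The share of the 99 genes gave none.

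Control replicate 4 at 3 h had a score of -0.78, where the other 3 replicates had 0.23 to 0.31. WNT replicate 3 at 3 h had -0.23, where the others had 0.06 to 0.09. For MH05t0022700, WNT replicate 4 at dawn measured 618 TMM-scaled CPM against 378 to 408. For MH05t0266300, WNT replicate 1 at dawn measured 358 against 594 to 611. For MH02t0698700, Control replicate 3 at 14 h measured 1054 against 346 to 388. For MH10t0107800, Control replicate 1 at 14 h measured 866 against 282 to 366, and WNT replicate 3 at 17 h measured 525 against 572 to 578.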

How the results depend on the processing

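The rule gave 152 genes with a minimum of 400 CPM and 33 with 1000 CPM. With TMM factors it gave 86 genes, of which 81 were among the 99, and 94 to 102 without 1 replicate of both treatments. R under 2 in WNT held for 91 to 95 of the 99 genes under the alternatives. The WNT minus Control difference in share was 0.17 points at 23 h without the 10 most counted genes (-0.41 with them), and -1.001 points at 3 h with counts outside the rhythmic abundant genes as denominator, a choice made after seeing the data. Leaving out 1 library gave -0.44 to 0.06 points at dawn, -0.69 to 0.00 at 3 h, -0.13 to 0.71 at 7 h, -0.66 to -0.22 at 10 h, -0.53 to 0.19 at dusk, 0.05 to 1.27 at 14 h, -0.16 to 0.70 at 17 h and -0.66 to -0.18 at 23 h.

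Of the 99 genes, 0 were called at 3 h when that hour was fitted alone, where 5 of all 16379 tested genes were called. With libraries left out, 3 to 14 of the 99 were called. The lowest was without WNT replicate 4, where 182 of all 20614 tested genes were called. Without Control replicate 1 or 3 at 3 h, 8 of the 99 were called (1060 and 939 of all tested genes). With 1 replicate number of a treatment left out at all hours, the average gave 12 to 39, the lowest without WNT replicate 3. Over all tested genes these fits called 1916 to 4238. Differences over time in WNT gave 63 to 80, and 12156 to 14828 over all tested genes. At 7 h the count was 0 to 1 with replicates left out, and 28 over all tested genes in the fit with 1, without Control replicate 4. limma-voom with quality weights called 4 of the 99 genes at dawn, 2 at 7 h and 16 at 10 h. Of all 20525 tested genes it called 420, 138 and 2727 at these hours. DESeq2 called 1 of the 99 at 7 h and 1 at 10 h, and 47 and 234 of all tested genes. Without the 6 libraries set aside, a choice made after seeing the data, edgeR called 1 of the 99 at 7 h and 1 at 10 h. The counts over all tested genes are not given for these 2 calls, so they are not read as a result about the 99 genes. The interaction gave 0 under every alternative run for it. The causes were not tested.

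Replicate numbers did not pair the libraries. Same-numbered libraries of the 2 treatments had correlated deviations (r over 0.1) in 12 of 32 pairs, with r from -0.61 to 0.31. With the replicate block, 6 of the 99 genes were called at 3 h and 19 for the average, and 68 for differences over time in WNT. Of all 20525 tested genes, 542, 2855 and 13288 were called in these comparisons. With library size only, the median of all genes at 23 h was 0.19 log2 units against 0.05 with TMM, and that of the 99 genes -0.03 against -0.15. Of the 4 genes named for their average change, 3 passed under all 17 alternatives and MH10t0107800 under 12.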
